A study of Mus musculus with 10 samples.

Results

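The dual-specificity MAP kinase phosphatases (MKPs) are the Dusp genes whose products remove phosphate from both the threonine and the tyrosine of activated MAP kinases. The 10 members, Dusp1, Dusp2, Dusp4, Dusp5, Dusp6, Dusp7, Dusp8, Dusp9, Dusp10 and Dusp16, were found by symbol among the 20171 genes used, and all 10 had a mean value of at least 3 over the groups. They were measured in ribosome-bound RNA obtained by translating ribosome affinity purification (TRAP) from the hippocampus of adult male C57BL/6 mice 70 to 90 days old. According to the methods, the tagged ribosomal protein was driven by a Gprin3 bacterial artificial chromosome in CA3 pyramidal cells, whereas the genotype in the sample records is wild type. The study asked how early life stress (ELS) alters the response to an acute swim stress (AS), and the 4 groups were controls left undisturbed as adults (at rest), controls after AS, ELS mice at rest, and ELS mice after AS. ELS was given by a wire grid and reduced nesting material from postnatal day 2 to 12, controls having had a whole nestlet and no grid, and every litter stayed with its dam until postnatal day 21. AS was a forced swim that lasted 6 min, in 2 L of water kept at 25°C, and tissue was taken after 1 h of recovery. The sample records list 2 libraries of controls at rest, 2 of controls after AS, 3 of ELS mice at rest and 3 of ELS mice after AS, where the methods give 3 per group, and each library pooled the RNA of 5 to 6 mice.

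The deposited table holds 1 value per gene and group, a regularized logarithm (rlog) of gene counts in log2 units. No value per library was at hand, so no difference below could be set against the spread between replicates and none was tested. Each value is the authors' group value, and each difference is a subtraction of group values. To place a member among other genes, its difference was ranked among the 14986 genes whose mean reached 3, and the rank is given as a percentile, 100 being the highest difference. A gene was counted as higher or lower when its difference was over 0.5.

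MAP kinases carry signals from the membrane to the nucleus in a chain of kinases, and they end in 3 main branches named after ERK, JNK and p38. In neurons, calcium entry and neurotrophins activate ERK, which reaches the nucleus and switches on immediate early genes. MKPs shut these kinases off again. Several MKP genes are themselves targets of the pathway they close, so that their RNA rises soon after a stimulus, and Dusp1 is in addition a known target of the glucocorticoid receptor. The members fall into nuclear inducible enzymes (Dusp1, Dusp2, Dusp4, Dusp5), cytoplasmic enzymes that prefer ERK (Dusp6, Dusp7, Dusp9), and enzymes that prefer JNK and p38 (Dusp8, Dusp10, Dusp16).

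Dusp1 and Dusp5 were low in ELS mice at rest and high in both swum groups, Dusp4 was highest in controls at rest, and Dusp8 was nearly flat. Of the 10 members, 6 had their lowest value in ELS mice at rest, where 22.0% of all genes tested had theirs, and 7 had their highest value in ELS mice after AS, against 19.7% of all genes. Both counts rest in part on near ties. At rest, Dusp6 and Dusp8 in ELS mice were each −0.04 from controls, and each −0.01 once the groups were centred. Once transcript length was allowed for, Dusp8 differed by 0.04 and no longer had its lowest value in ELS mice at rest. With the groups centred on their medians, Dusp7 and Dusp9 were lower in ELS mice after AS than at rest, by −0.02 and −0.01. Dusp5 was then lower in ELS mice after AS than in controls after AS, by −0.01. Dusp7, Dusp9 and Dusp5 thus no longer had their highest value in ELS mice after AS. The range over the 4 group values was widest for Dusp1 with 0.59, followed by Dusp5 with 0.57, Dusp4 with 0.55 and Dusp10 with 0.54, and narrowest for Dusp8 with 0.05, beside a median range of 0.21 over the genes tested.

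**Figure D1:**
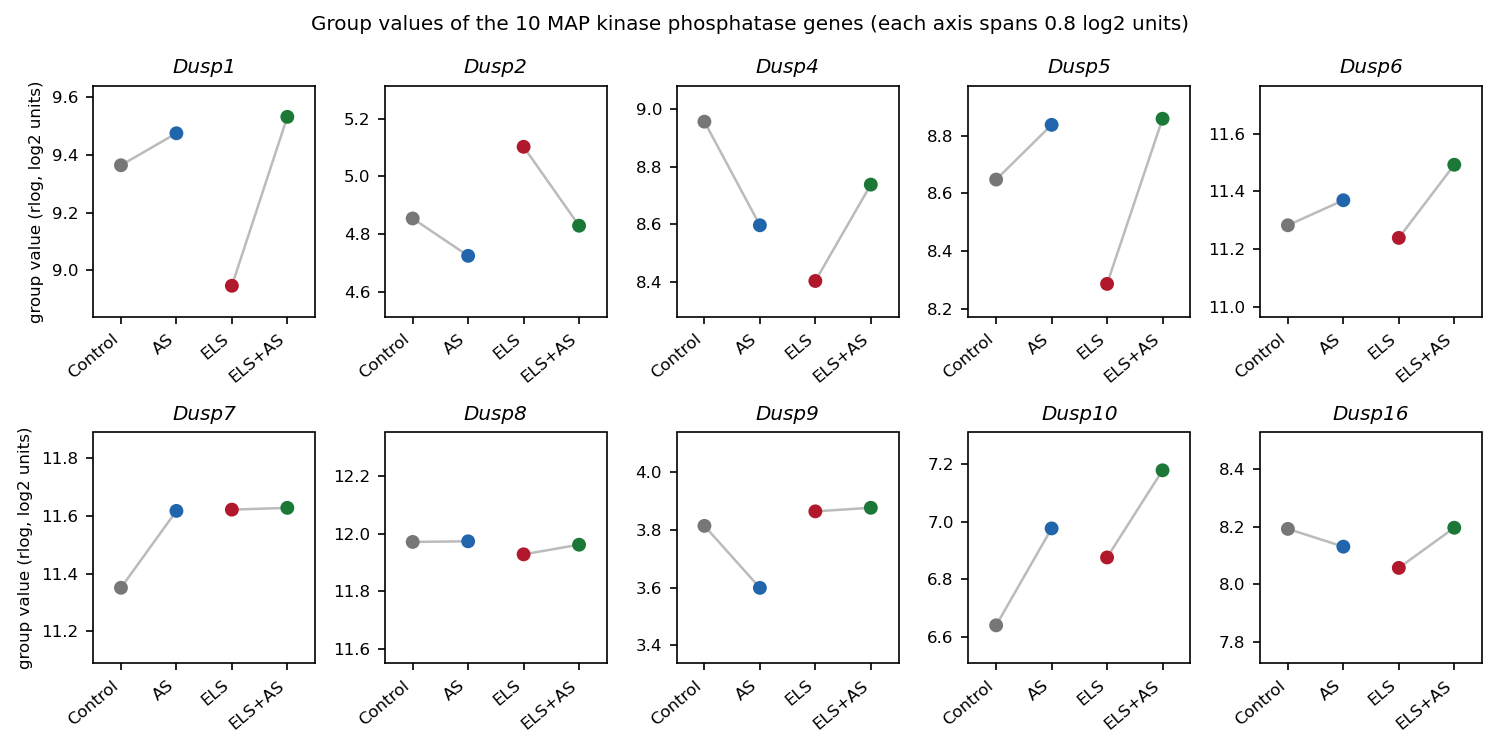
Group values in rlog units (log2) of each MKP gene in controls at rest, controls after AS, ELS mice and ELS mice after AS; a point is 1 group value, lines join the groups without and with AS, and every panel spans 0.8 units. Dusp1 and Dusp5 had their lowest point in ELS mice at rest, at 8.95 and 8.29, and Dusp8 stayed between 11.93 and 11.97.

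Dusp1 encodes MKP-1, a nuclear phosphatase that acts on p38, JNK and ERK. Its rlog values were 9.36 in controls at rest, 9.48 in controls after AS, 8.95 in ELS mice at rest and 9.53 in ELS mice after AS. The ELS group at rest thus stood apart below the other groups, and the swum groups lay within 0.06 of each other. The AS difference was 0.11 in controls, at percentile 71.8, and 0.59 in ELS mice, at percentile 99.7. Without AS, ELS mice differed from controls by −0.42, at percentile 3.13, a ratio of 0.748 on the linear scale.

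Dusp5 encodes a nuclear phosphatase that acts on ERK alone. Its values were 8.65 in controls at rest, 8.84 after AS in controls, 8.29 in ELS mice at rest and 8.86 after AS in ELS mice. The order of the groups was the same as for Dusp1. The AS difference was 0.19 in controls and 0.57 in ELS mice, at percentiles 82.5 and 99.6, and the difference of ELS mice at rest from controls was −0.36, at percentile 4.64. For both genes the ELS value at rest enters both the low ELS difference and the high AS difference in ELS mice, so these are not separate observations.

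Likeness to Dusp1, the member with the widest range, was measured as the root mean square distance over the 3 differences from controls at rest, thus over 4 group values. The gene nearest to Dusp1 among all genes tested was Dusp5, at a distance of 0.06, and the gene nearest to Dusp5 was Dusp1. Next to Dusp1 came Mybpc1, a myosin-binding protein, at 0.09, Penk, which encodes the precursor of the enkephalin opioid peptides, at 0.09, Csrnp1, an immediate early nuclear protein, at 0.10, and P2ry1, a receptor for ADP, at 0.11. Penk stood at 8.21, 8.24, 7.87 and 8.50 in the order of the groups above. The genes nearest to Dusp5 after Dusp1 were Txnip, an inhibitor of thioredoxin, at 0.08, then P2ry1 at 0.08, Hbq1a, a hemoglobin gene, at 0.09 and Mybpc1 at 0.09. Among the other members, Dusp16 ranked 395 and Dusp6 ranked 485 in nearness to Dusp1, and Dusp4 ranked 10826.

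The promoters of Dusp1 and Dusp5 are shown because each was the nearest gene to the other, and that of Dusp8 because its values hardly differed. Sequences are from RefSeq (GRCm38.p6), from 250 bases before to 50 after an annotated transcription start, written in the direction of transcription. Capitals mark the core letters of the cAMP response element (CRE), TGACG on either strand, and the CArG box, the site of serum response factor. The genes themselves lie at chr17:26505591-26508472 (Dusp1, minus strand), chr19:53529145-53541809 (Dusp5, plus strand) and chr7:142079487-142095907 (Dusp8, minus strand). An entry was found for 8 of the 10 members, all but Dusp4 and Dusp9. The Dusp8 window lies wholly within the span of its gene, at a start inside it, as does that of Dusp16. The Dusp1 and Dusp5 windows reach upstream of their genes.
Dusp1, chr17:26508423-26508722, minus strand: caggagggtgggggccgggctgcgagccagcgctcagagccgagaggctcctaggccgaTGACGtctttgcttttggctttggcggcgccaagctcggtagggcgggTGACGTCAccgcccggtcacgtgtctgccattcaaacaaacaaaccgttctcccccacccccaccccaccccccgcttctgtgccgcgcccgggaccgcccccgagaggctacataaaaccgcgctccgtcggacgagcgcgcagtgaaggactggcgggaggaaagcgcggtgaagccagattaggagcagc
Dusp5, chr19:53528895-53529194, plus strand: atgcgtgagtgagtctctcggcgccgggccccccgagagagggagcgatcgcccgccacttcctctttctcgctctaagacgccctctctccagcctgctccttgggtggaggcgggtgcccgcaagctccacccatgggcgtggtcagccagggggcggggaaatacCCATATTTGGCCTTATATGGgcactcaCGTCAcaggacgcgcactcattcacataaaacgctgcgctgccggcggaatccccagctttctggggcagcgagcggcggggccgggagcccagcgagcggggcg
Dusp8, chr7:142095235-142095534, minus strand: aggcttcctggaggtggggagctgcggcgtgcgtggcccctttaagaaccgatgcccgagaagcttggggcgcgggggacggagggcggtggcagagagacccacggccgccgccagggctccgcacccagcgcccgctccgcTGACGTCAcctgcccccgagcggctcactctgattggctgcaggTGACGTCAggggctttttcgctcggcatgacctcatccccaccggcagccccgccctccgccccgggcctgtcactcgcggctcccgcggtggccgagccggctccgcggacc

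The CRE palindrome TGACGTCA, which contains the core TGACG on both strands, was present 1 time in the Dusp1 window, from position −143 relative to the start, and 2 times in the Dusp8 window. It was found in 2 of the 8 members and in 1.79% of the 32851 promoters of the table. The CRE core was found in 5 of 8 members, Dusp1, Dusp2, Dusp5, Dusp8 and Dusp16, and in 20.8% of all promoters. Only the Dusp5 window among the 8 held the CArG box, with 2 adjoining matches that begin at positions −82 and −72, against 1.63% of all promoters with at least 1. The GC box GGGCGG was found in 7 members and 35.7% of promoters, the Egr core GCGTG in 4 members and 32.4%, and the AP-1 site TGACTCA in 0 members and 5.20%, each on either strand. A match is a description of the letters only. The palindrome was present both in the window of Dusp1, whose range was among the widest, and in that of Dusp8, whose range was the narrowest. These 2 windows are placed differently, since that of Dusp8 lies inside its gene.

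**Figure D2:**
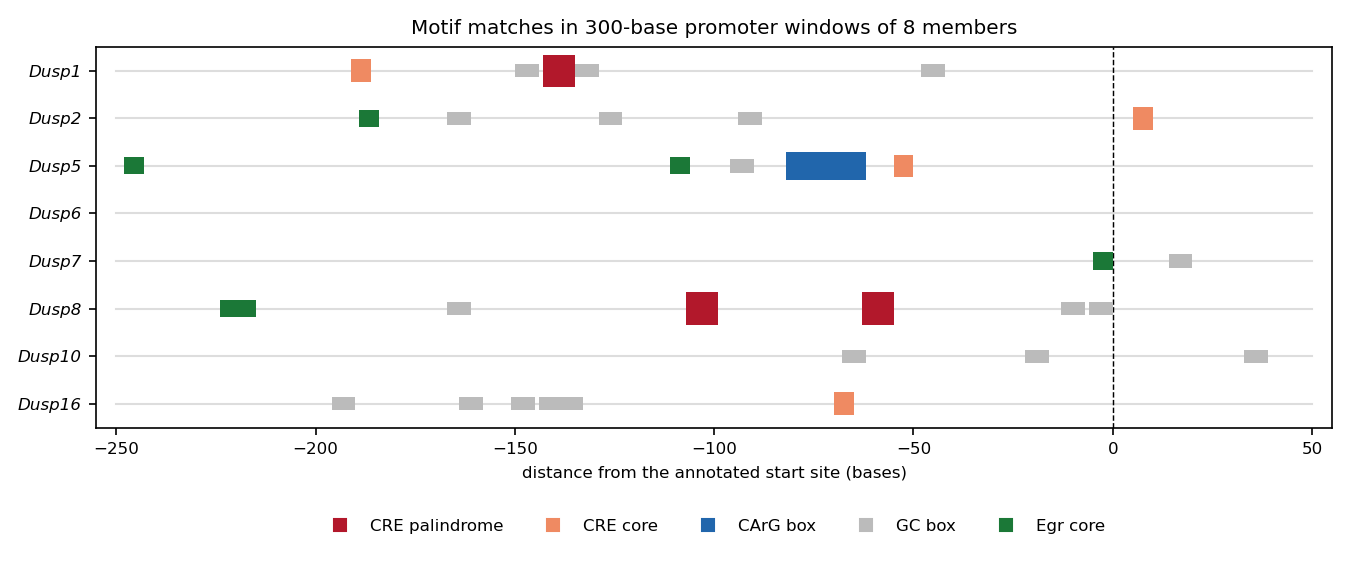
Motif matches in the windows of 8 members, by distance in bases from the annotated start (dashed line); boxes are drawn to the length of the match, and taller boxes cover shorter ones where motifs overlap. Dusp5 holds the CArG boxes, Dusp1 holds 1 CRE palindrome and Dusp8 holds 2.

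Dusp4 encodes MKP-2, a nuclear phosphatase for ERK and JNK. Its values were 8.96 in controls at rest, 8.60 after AS in controls, 8.40 in ELS mice at rest and 8.74 in ELS mice after AS. Every other group lay below controls at rest, and the AS difference pointed down in controls, with −0.36 at percentile 5.51, and up in ELS mice, with 0.33 at percentile 97.5. The AS effect in ELS mice minus that in controls was 0.69, the highest of the members, at percentile 98.3, and this contrast of 4 group values was not tested. Without AS, the difference of ELS mice from controls was −0.55, at percentile 1.59. The value of controls at rest enters the differences of −0.36, −0.55 and 0.69. That of ELS mice at rest enters −0.55, 0.33 and 0.69, so these are not separate observations.

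Dusp2 encodes PAC-1, known from activated immune cells, and stood low in this table. Its values were 4.85 at rest and 4.72 after AS in controls, and 5.10 and 4.83 in ELS mice. It was the sole nuclear member with its highest value in ELS mice at rest, and the AS difference in ELS mice was −0.27, at percentile 1.47. At such low values rlog shrinks differences the most, and the difference of ELS mice at rest from controls went from 0.25 to 0.12 and that of AS in controls from −0.13 to −0.23 with the trend in transcript length removed.

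Dusp6 encodes MKP-3, the cytoplasmic phosphatase of ERK that ERK signalling itself induces. The values were 11.28 in controls at rest, 11.37 after AS in controls, 11.24 in ELS mice at rest and 11.49 after AS in ELS mice. The AS difference was 0.09 in controls and 0.25 in ELS mice, while the difference of ELS mice at rest from controls was −0.04. Dusp6 was highest in ELS mice after AS, and controls after AS came next.

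Dusp7 encodes MKP-X, which also acts on ERK in the cytoplasm. It stood at 11.35 in controls at rest and at 11.62, 11.62 and 11.63 in the other groups. The other groups lay together, 0.27 to 0.28 above controls at rest, and AS in ELS mice added 0.01. These 3 differences share the controls at rest. Dusp9 encodes MKP-4, an ERK phosphatase known from placenta and insulin-responsive tissue, and had values of 3.81, 3.60, 3.86 and 3.88. Controls after AS were the low group for Dusp9, whose mean of 3.79 was the lowest of the members and near the filter of 3. The caution on low values given for Dusp2 thus holds for Dusp9 too. The Dusp9 difference of ELS mice at rest from controls went from 0.05 to −0.00 with the trend in expression level removed.

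Dusp10 encodes MKP-5, a phosphatase of p38 and JNK. Its values were 6.64 in controls at rest, 6.98 after AS in controls, 6.88 in ELS mice at rest and 7.18 in ELS mice after AS. The AS difference was alike in size in both backgrounds, 0.34 in controls and 0.30 in ELS mice, and the AS effects differed by −0.03, or by −0.09 with the trend in expression level removed. ELS mice after AS were 0.54 above controls at rest, at percentile 98.1, and all other groups lay between them.

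Dusp8 encodes a phosphatase of JNK and p38 that is known for its expression in brain and heart, and its values were 11.97, 11.97, 11.93 and 11.96. The range of 0.05 was smaller than that of all but 1.55% of the genes tested. Dusp16 encodes MKP-7, which acts on JNK, and stood at 8.19, 8.13, 8.06 and 8.20 in the same order. ELS mice at rest were the low group for Dusp16, by −0.14, and ELS mice after AS and controls at rest were within 0.01. With the trend in transcript length removed these differences were −0.04 and 0.09.

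Levels can be set side by side between genes only per length. On the scale of the rlog mean minus log2 of the longest transcript in kb, Dusp7 stood at 9.87, Dusp6 at 9.86 and Dusp8 at 9.69. Dusp1 followed at 8.12, then Dusp5 at 7.35 and Dusp4 at 7.22, Dusp16 at 5.79 and Dusp10 at 5.44, Dusp2 at 4.18 and Dusp9 at 2.34. The cytoplasmic ERK phosphatases Dusp6 and Dusp7 and the JNK and p38 phosphatase Dusp8 were thus the most abundant MKP transcripts per length. With no spread per library, neighbours could not be tested. Dusp6 was above Dusp7 in controls at rest, at 9.80 against 9.67, and below it in ELS mice at rest, at 9.75 against 9.94. Dusp4 was above Dusp5 in controls at rest alone, at 7.50 against 7.34.

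For AS in controls, 0 members were higher by over 0.5, beside 1.56% of the 14986 genes tested, and 0 were lower, beside 2.08%. Differences ran from −0.36 for Dusp4 to 0.34 for Dusp10, with 6 members above 0 and 4 below. The median was 0.04, beside −0.01 over all genes tested. For ELS without AS, 0 members were higher by over 0.5, beside 1.30% of genes, and 1, Dusp4, was lower, beside 1.92%. Here 4 members were above 0 and 6 below, with a median of −0.04 beside −0.01 over all genes. Dusp4, Dusp1 and Dusp5 were the lowest members, and Dusp7 the highest at 0.27.

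For AS in ELS mice, Dusp1 and Dusp5 were higher by over 0.5, thus 2 of 10 members beside 0.634% of all genes, and 0 were lower, beside 0.113%. All members except Dusp2 were above 0, 9 of 10, where 50.8% of all genes were. Dusp7 and Dusp9 were at 0.01, and with the groups centred on their medians both were below 0, which left 7 of 10 above it. The median was 0.20 beside 0.00 over all genes tested. In absolute size the median difference was 0.26 for members and 0.07 for all genes. In controls the corresponding sizes after AS were 0.16 and 0.14.

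**Figure D3:**
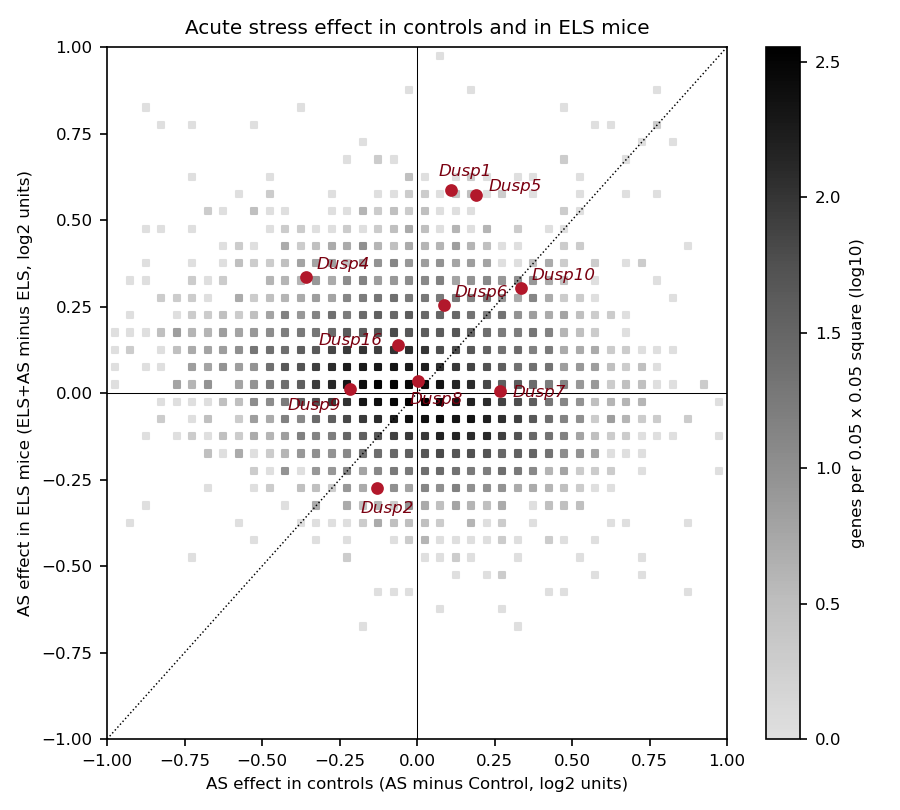
AS difference in ELS mice against AS difference in controls, both in log2 units, for the MKP genes (red) over the density of all genes tested (grey squares, log10 of the number of genes; genes past 1 in either direction are outside the frame). Dusp1 and Dusp5 lie at 0.59 and 0.57 on the vertical axis, Dusp10 lies close to the dotted line of equal effects, and Dusp4 has a negative value in controls and a positive value in ELS mice.

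Against controls at rest, ELS mice after AS had 1 member higher by over 0.5, Dusp10, beside 2.40% of genes, and 0 lower, beside 1.55%. When both groups had been swum, ELS mice had 0 members higher by over 0.5, beside 1.34% of genes, and 0 lower, beside 0.347%. In this comparison 9 of 10 members were above 0, beside 49.0% of genes, or 7 of 10 with the groups centred on their medians. The median was 0.09 beside −0.00 over all genes. Between the swum groups the median absolute difference of the members was 0.09, while between the groups without AS it was 0.24, beside 0.08 and 0.14 over all genes tested. Dusp1 and Dusp5 in particular differed by 0.06 and 0.02 between ELS mice and controls after AS. The AS effect in ELS mice minus that in controls was over 0.5 for 1 member, Dusp4, beside 4.65% of genes, and under −0.5 for 0 members, beside 3.06%. It was 0.47 for Dusp1 and 0.38 for Dusp5, and lowest for Dusp7, at −0.26.

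Markers of other cells moved in the same comparisons. For AS in ELS mice, the differences of 10 of 10 astrocyte, 10 of 10 oligodendrocyte, 10 of 10 interneuron and 8 of 8 dentate granule markers were above 0, beside 50.8% of all genes, with medians of 0.47, 0.45, 0.25 and 0.36. Over 0.5 were 4 of the astrocyte, 2 of the oligodendrocyte, 1 of the interneuron and 1 of the dentate granule markers, beside 0.634% of all genes. Also above 0 were 6 of 6 CA1, 5 of 5 oligodendrocyte precursor, 5 of 5 choroid plexus and 9 of 10 microglial markers. Their medians were 0.13, 0.35, 0.14 and 0.28, and 1 of the oligodendrocyte precursor markers was over 0.5. Of the CA3, endothelial and mural, and blood markers, 5 of 12, 4 of 10 and 1 of 3 were above 0. The medians of these lists were −0.06, −0.02 and −0.01. Over the 10 astrocyte markers the mean rlog was 10.06 in controls at rest, 10.12 after AS in controls, 10.17 in ELS mice and 10.59 in ELS mice after AS, and for oligodendrocytes it was 11.09, 10.94, 11.14 and 11.55. For ELS without AS, 6 of 10 oligodendrocyte and 3 of 10 astrocyte markers were below 0, beside 51.5% of all genes, with medians of −0.03 and 0.07. The dentate granule markers were below 0 for 8 of 8 genes for AS in controls and for 7 of 8 for ELS without AS, beside 51.7% and 51.5% of all genes. Of these markers, 3 and 1 were under −0.5, beside 2.08% and 1.92% of all genes. The mean values of the dentate granule markers were 9.79, 9.45, 9.52 and 9.85 in the order of the groups above. All 12 CA3 markers had a mean of at least 3, from 5.11 to 12.99, and 11 of them were below 0 for AS in controls and 11 for ELS without AS. Under −0.5 were 2 and 1 of the CA3 markers, beside 2.08% and 1.92% of all genes. Gprin3 itself stood at 7.47, 6.92, 6.70 and 6.73. The lowest mean of any marker was 7.49 for astrocytes and 8.67 for oligodendrocytes, so none was near 0. Microglial markers were above 0 for 10 of 10 genes for AS in controls and 9 of 10 for ELS without AS, beside 48.3% and 48.5% of all genes. Of them, 1 was over 0.5 in each comparison, beside 1.56% and 1.30% of all genes. The 3 blood markers tested had medians of 0.67 in both comparisons. Fewer cells of a type, less RNA per cell and a changed carry-over of RNA from untagged cells cannot be told apart in such samples. The part of these markers in the values of the MKP genes was not tested.

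After AS in ELS mice, the kinases that the MKPs act on and those upstream had differences near 0. The median absolute difference over all genes was 0.07 there. Of 14 genes of the ERK branch, 0 were higher and 0 lower by over 0.5 in ELS mice after AS, beside 0.634% and 0.113% of all genes, with a median of −0.00 and differences from −0.09 to 0.15. Mapk3, which encodes a kinase of the ERK type, differed by −0.05 there. Its AS difference in controls was 0.12 and its ELS difference at rest 0.13. The scaffolds Ksr1 and Ksr2 were the lowest of this branch in ELS mice at rest, with −0.54 and −0.69.

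The JNK branch had 14 genes with a median of −0.01 after AS in ELS mice, from −0.11 to 0.13. Map3k13, an upstream kinase of JNK, was at −0.57 in ELS mice at rest, and Mapk8ip2, a JNK scaffold, at −0.52 after AS in controls. Of 14 genes of the p38 branch the median was 0.01 after AS in ELS mice, and the highest was Mapkapk3, a kinase downstream of p38, with 0.34. Mapk14, the main p38 kinase, showed differences of −0.24 for AS in controls and −0.31 for ELS at rest.

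The 13 atypical dual-specificity phosphatases tested lack the kinase-binding domain of the MKPs. Of these, 11 were above 0 after AS in controls and 12 in ELS mice at rest, beside 48.3% and 48.5% of all genes. Their medians were 0.15 and 0.16. After AS in ELS mice, 10 were below 0, beside 49.2% of all genes, with a median of −0.10. Dusp28 had differences of 0.36, 0.37 and −0.18 in these comparisons, and Dusp26, a phosphatase of neural tissue, 0.34, 0.29 and 0.04. Among 7 further phosphatases that act on MAP kinases, Ptprr, a neuronal tyrosine phosphatase of ERK, stood at −0.32, −0.26 and 0.11, and Ptpn5, known as STEP, at −0.13, −0.19 and 0.07.

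Feedback inhibitors of Ras and ERK signalling had 9 of 14 genes above 0 after AS in controls and 9 of 14 in ELS mice. Beside them stood 48.3% and 50.8% of all genes, and the medians of the list were 0.08 and 0.12. Trib1, a pseudokinase that binds MEK, was the highest after AS in ELS mice, with 0.58, and ran from 8.03 at rest to 8.29 after AS in controls and from 7.83 to 8.40 in ELS mice. Its lowest group was therefore that of Dusp1 and Dusp5. Spry4, a Sprouty inhibitor of receptor tyrosine kinase signalling, was higher after AS by 0.35 in controls and 0.28 in ELS mice. Spry2 went from 0.18 in controls to −0.21 in ELS mice. Of 19 nuclear effectors of ERK, Ier2 was the highest after AS in both backgrounds, with 0.47 in controls and 0.48 in ELS mice, and the medians were 0.03 and 0.06.

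Immediate early genes, which ERK signalling switches on, had 9 of 20 members higher by over 0.5 after AS in controls and 9 of 20 in ELS mice, beside 1.56% and 0.634% of all genes, with medians of 0.47 and 0.46. Fos, the best known of them, was higher by 1.23 in controls and 1.32 in ELS mice. Nr4a1, an orphan nuclear receptor, was higher by 0.49 in controls and 0.84 in ELS mice, and its value in ELS mice at rest was 0.33 under that of controls, at 10.79 against 11.12. Npas4, an activity-dependent transcription factor, differed by −0.51 in ELS mice at rest and was the lowest of the list there. The AS difference in controls was 0.11 for Dusp1 and 0.19 for Dusp5, under the median of this list. The lowest of the list there were Nr4a3 at −0.02, Jun at 0.07 and Egr3 at 0.12. Such small differences were thus not particular to these members.

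**Figure D4:**
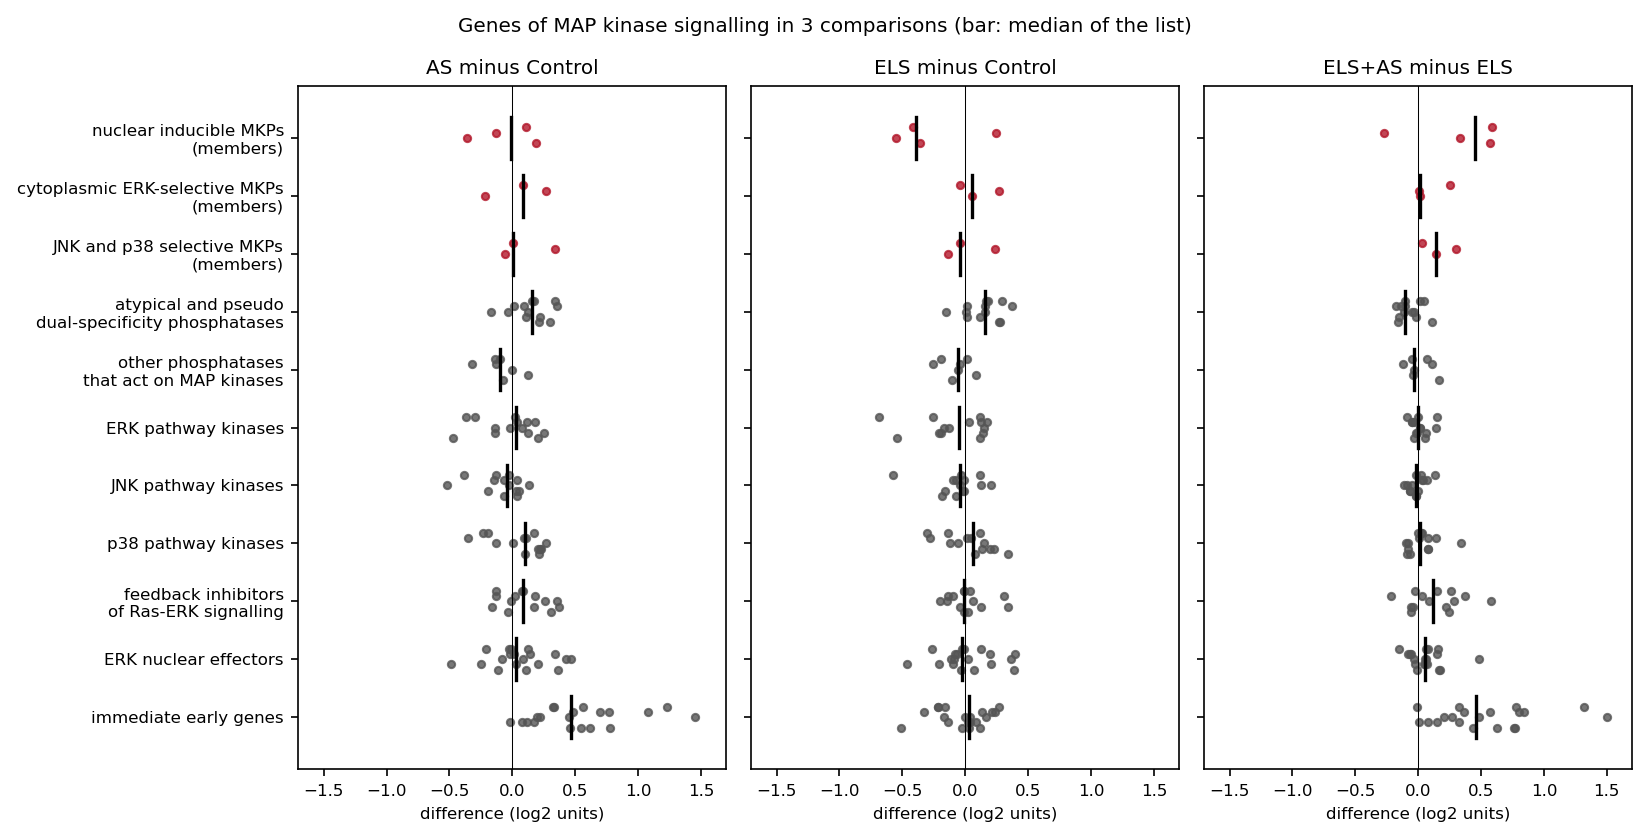
Differences in log2 units for genes of MAP kinase signalling after AS in controls, in ELS mice without AS, and after AS in ELS mice; each point is 1 gene with a mean of at least 3, red points are the MKP genes, and black bars are medians of the lists. Most kinases lie near 0 after AS in ELS mice, with Mapkapk3 the highest of them at 0.34. Of the 4 nuclear MKP genes, 3 lie at 0.33 to 0.59 and Dusp2 lies at −0.27.

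Of 18 glucocorticoid-induced genes, 14 were above 0 for AS in controls, 12 for ELS without AS and 16 for AS in ELS mice. Of all genes tested, 48.3%, 48.5% and 50.8% were above 0 there. The medians of the list were 0.22, 0.16 and 0.14. Furthest from 0 for ELS without AS were the metallothionein genes Mt2 and Mt1, at 0.92 and 0.80, and, in the other direction, the transcription factor genes Zbtb16 and Klf9, at −0.62 and −0.35. Sgk1, a kinase induced by corticosteroids, stood at 11.33 in controls at rest, 11.44 after AS, 11.11 in ELS mice and 11.52 in ELS mice after AS, and Per1, a clock gene with a glucocorticoid response element, at 10.86, 11.08, 10.71 and 11.13. Both had their lowest value in ELS mice at rest, whereas most of the list stood above controls there. Fkbp5, a co-chaperone of the glucocorticoid receptor, stayed between 11.13 and 11.16.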

How the data were processed

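RNA bound to tagged ribosomes was sequenced by the authors, who aligned the reads to mm10 with Rsubread, quantified transcripts with Salmon, summed them to genes with tximport and fitted DESeq2. The deposited values are on the log2 scale, the rlog made by the authors with DESeq2, and tool versions are not given in the sources used here. Whether the table includes the limma batch correction that the methods name for heatmaps, and how libraries were combined, is not stated. The table has 4 columns and 20196 rows, and 25 symbols turned into dates were left out. Depth per library was not analysed here, so no interval, SD or test could be given.

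Differences, counts past 0.5, medians and percentiles were computed over the 14986 genes whose mean over the groups reached 3, with Python 3.11.15, numpy 2.4.6 and pandas 2.3.3, and the code was tested on simulated data. Named genes were all members, up to 3 genes furthest from 0 in each direction of a comparison for each pathway list, and the 5 genes nearest to each of the 2 members with the widest ranges. Members and lists were chosen with earlier results of these data known. Transcript lengths are from GENCODE M21 (GRCm38) and were found for 98.1% of the genes tested. Figures used matplotlib 3.10.9. Alternatives were sizes of 0.25 and 1, other filters on the mean, centring of groups, removal of trends in transcript length or level in 50 bins, and the mean of the members.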

Additional observations from a re-analysis of the deposited data

How the results depend on the processing

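Counts of members depended on the size asked for. At a difference of 0.25, AS in controls had 2 members higher and 1 lower, ELS without AS had 1 higher and 3 lower, AS in ELS mice had 5 higher and 1 lower, ELS with AS against controls at rest had 2 higher, ELS among swum mice had 1 higher, and the AS effect in ELS mice minus that in controls had 3 higher and 1 lower. The share of all genes past 0.25 was not computed, so these counts have no such share beside them. The top 5% of all genes began at 0.36 for AS in controls, 0.35 for ELS without AS and 0.25 for AS in ELS mice. The bottom 5% began at −0.37, −0.35 and −0.18. For the other comparisons, in the order above, the top 5% began at 0.38, 0.30 and 0.49, and the bottom 5% at −0.33, −0.19 and −0.43. Median absolute differences over all genes were 0.14 for AS in controls, 0.14 for ELS without AS and 0.07 for AS in ELS mice. They were 0.13 for ELS with AS against controls at rest, 0.08 among swum mice and 0.18 for the difference of AS effects. At a difference of 1 the counts of members that had been above 0 became 0. Other filters on the mean, centring of the groups on their medians, and removal of the trend in expression level or transcript length left every count of members past 0.5 as it was. Over these alternatives and the mean in place of the median, the median of the members lay between 0.17 and 0.28 for AS in ELS mice, between 0.02 and 0.10 for AS in controls and between −0.09 and 0.00 for ELS without AS. Of 60 differences of single members, removal of the length trend shifted 4 by over 0.1, at most by 0.14, and the other alternatives shifted none by as much. The sign changed for 4 with the length trend removed, 6 with the trend in level removed and 5 with the groups centred. The rlog medians of the groups lay within 0.04 of controls at rest. No paired analysis was possible because the columns hold 1 value per group, and no library could be left out for the same reason.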
